A study of Mus musculus with 6 samples.

Results

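Rab GTPases are small proteins that mark the membranes of a cell and decide where a transport vesicle goes. A Rab is switched on by an exchange factor (GEF), then recruits effectors such as motors, tethers and adaptors, and is switched off by a GTPase-activating protein (GAP). A lipid anchor, added and recycled by a set of dedicated carrier proteins, holds it on its membrane. In dendritic cells Rabs route engulfed antigen and the molecules that present it, and in granule-bearing blood cells they carry granules to the surface.

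The genes described here were all those whose symbol in the probe annotation is Rab followed by a number, with letters and a further number allowed. They are 71 of the 18193 genes measured. Of them, 59 are Rab GTPases and 12 carry a Rab name without being one. These 12 are the Rab11 effectors Rab11fip1 to Rab11fip5, the Rab3 GTPase-activating complex Rab3gap1 and Rab3gap2, the Rab8 exchange factors Rab3il1 and Rab3ip, Rab5if, and the opposite-strand transcripts Rab10os and Rab26os. Each gene was read from its probe set with the highest mean over the 6 arrays. In all, 160 probe sets carried the 71 genes, and 48 genes had more than 1. No filter on low values was used, so every one of the 71 was tested. Of them, 51 had a mean level above the median gene mean of 5.73, which is 71.8%, and 20 lay below it. For 10 genes the mean was under 4.77, the highest of the medians of the 6 arrays over all probe sets, so part of their signal is background.

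The RNA came from cells grown from bone marrow of C57BL/6 mice and was measured on Affymetrix arrays, 2 for each of 3 groups. GM-TNFa-DC are dendritic cells derived from the cultured progenitors with GM-CSF and TNFa. GM-DC are dendritic cells derived from them with GM-CSF alone, and GM-MPP are the progenitors themselves, grown in stem cell cytokines together with GM-CSF, so cells of all 3 groups met GM-CSF. The labels do not give the age of the animals, the doses or times, or say whether the 2 arrays of a group, numbered 1 and 2, come from separate cultures; p-values therefore measure only the spread between these arrays.

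Most defining markers followed the labels, with exceptions. Over 9 dendritic cell markers the mean log2 level was 11.2 and 9.91 on GM-TNFa-DC 1 and 2, 10.8 and 9.58 on the GM-DC arrays, and 5.58 and 5.75 on the GM-MPP arrays. In both dendritic cell groups 7 of the 9 were called higher than in GM-MPP, Zbtb46 was not called, and Flt3, which progenitors also express, was lower (-1.98 in GM-DC). Of 7 progenitor markers 5 were lower in both, Flt3 counted again, while Mecom and Kit were not called. Kit stood at 8.66 and 5.43 on the GM-TNFa-DC arrays, 9.0 and 5.65 on the GM-DC arrays, and 7.09 and 7.22 on the GM-MPP arrays. Over 8 neutrophil granule genes it was 6.70 and 6.24 on the GM-TNFa-DC arrays, 7.94 and 6.51 on the GM-DC arrays, and 12.1 and 12.9 on the GM-MPP arrays. Besides progenitor genes, the GM-MPP arrays thus carried granule genes at a high level. Over 6 macrophage and monocyte markers the mean was 9.81 and 11.3 on the GM-TNFa-DC arrays, 10.2 and 11.3 on the GM-DC arrays, and 8.61 and 9.21 on the GM-MPP arrays. On the dendritic cell arrays numbered 2 this mean lay above that of the dendritic cell markers. All 6 were higher in both dendritic cell groups than in GM-MPP, and 1 of them was called. The dendritic cell arrays stood apart by number. Over all genes the arrays numbered 2 of both dendritic cell groups correlated at 0.9933 and those numbered 1 at 0.987, against 0.958 between the GM-TNFa-DC arrays and 0.964 between the GM-DC arrays. All 24 poly-A control probe sets, which read RNA added during labelling, were lower on number 2 than on number 1 in each group, by a median log2 difference of -1.37 in GM-TNFa-DC, -1.09 in GM-DC and -1.28 in GM-MPP. What the number stands for is not given in the sources used here, so each group difference is also given within number 1 and within number 2.

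The promoters of the Rab genes whose levels differed most clearly are shown so that their differing make-up can be seen. RefSeq windows of 300 bases from build GRCm38.p6, most of each before a listed transcription start and the rest after it, were found for 58 of the 71 genes, 76 windows in all; Rab38 is named only. The windows printed are those of Rab27a (chr9:73044560-73044859, plus strand), Rab15 (chr12:76822475-76822774, minus strand), Rab13 (chr3:90213465-90213764, plus strand), Rab12 (chr17:66519621-66519920, minus strand) and Rab20 (chr8:11478591-11478890, minus strand). Where several starts are listed, the most upstream was taken. Capitals mark matches to 6 short motifs searched on both strands, and the rest is in lower case.
Rab27a: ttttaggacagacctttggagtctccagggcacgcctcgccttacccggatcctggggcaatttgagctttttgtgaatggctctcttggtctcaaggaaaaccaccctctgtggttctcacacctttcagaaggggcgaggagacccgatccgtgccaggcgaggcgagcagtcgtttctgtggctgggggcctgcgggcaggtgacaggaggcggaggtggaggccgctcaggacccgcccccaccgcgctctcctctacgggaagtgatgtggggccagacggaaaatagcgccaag
Rab15: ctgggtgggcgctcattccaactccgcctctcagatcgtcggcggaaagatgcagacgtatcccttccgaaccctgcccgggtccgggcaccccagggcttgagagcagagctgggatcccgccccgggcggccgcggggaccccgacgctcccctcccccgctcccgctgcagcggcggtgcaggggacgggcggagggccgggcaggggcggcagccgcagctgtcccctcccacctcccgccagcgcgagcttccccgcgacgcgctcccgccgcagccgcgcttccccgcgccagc
Rab13: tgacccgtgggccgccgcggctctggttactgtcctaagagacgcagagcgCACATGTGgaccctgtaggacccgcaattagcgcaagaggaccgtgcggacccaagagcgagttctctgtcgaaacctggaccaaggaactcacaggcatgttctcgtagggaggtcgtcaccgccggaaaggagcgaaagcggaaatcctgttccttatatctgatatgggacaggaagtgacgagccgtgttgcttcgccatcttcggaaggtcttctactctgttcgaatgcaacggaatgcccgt
Rab12: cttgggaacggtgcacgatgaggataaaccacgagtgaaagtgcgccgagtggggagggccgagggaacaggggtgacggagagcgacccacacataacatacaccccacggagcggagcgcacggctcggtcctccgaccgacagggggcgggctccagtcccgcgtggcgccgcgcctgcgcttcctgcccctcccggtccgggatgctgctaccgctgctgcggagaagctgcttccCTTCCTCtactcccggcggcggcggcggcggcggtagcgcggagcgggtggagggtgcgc
Rab20: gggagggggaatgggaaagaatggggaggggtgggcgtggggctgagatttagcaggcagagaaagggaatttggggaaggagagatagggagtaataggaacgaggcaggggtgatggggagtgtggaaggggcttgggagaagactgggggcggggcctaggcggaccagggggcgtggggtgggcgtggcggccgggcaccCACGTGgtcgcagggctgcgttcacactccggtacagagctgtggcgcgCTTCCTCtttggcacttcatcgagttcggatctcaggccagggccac

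In the Rab20 window the capitals mark the E-box CACGTG at position -46 from the start and a match to the PU.1 letters GAGGAAG on the opposite strand. In the Rab12 window they mark another PU.1 match, at position -10. In the Rab13 window the core of the M-box, CATGTG, stands on both strands in 2 overlapping matches. The Rab27a and Rab15 windows held none of the letters searched, which says nothing about the factors. The Rab15 window was 76.3% G or C, the Rab12 window 70.7%, the Rab20 window 64.3%, the Rab27a window 61.3% and the Rab13 window 56.7%. Over the 76 Rab windows the median was 61.7% G or C with 19.5 CpG pairs, against 52.7% and 7.0 over all 32851 windows of the table. The E-box was in 13.2% of the Rab windows and in 7.15% of all windows. The PU.1 letters were in 11.8% and 13.6%, and the M-box core in 10.5% and 14.2%. The AP-1 letters TGANTCA were in 3.95% of the Rab windows and 7.81% of all, the C/EBP letters TTGCNNAA in 6.58% and 10.8%, and the Myb letters TAACNG in 21.1% and 23.3%. These shares are descriptions of letters, not of bound sites.

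The first comparison asks how the Rab genes differ between dendritic cells made with GM-CSF and the progenitors they came from. In GM-DC, Rab27a, Rab15 and Rab38 were lower than in GM-MPP and Rab13 was higher (limma, Benjamini-Hochberg adjusted p under 0.05). Those 4 genes are 5.63% of the 71, close to the 4.5% called among all genes in this comparison (1.87% higher, 2.63% lower). At an unadjusted p under 0.05 there were 20 genes, 28.2% against 21.6% of all genes. The median change of the 71 was 0.09 on the log2 scale, against 0.02 over all genes. The median size of change without regard to sign was 0.40, against 0.25. Most Rab genes thus had no called difference, and the called ones came from 3 of the 7 role groups described below. In such bulk RNA, fewer cells of a type and less RNA per cell cannot be told apart.

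Rab27a ties secretory granules and lysosome-related organelles to the cell cortex, and in neutrophils it serves the release of azurophil granules. Its level was 7.40 and 7.24 on GM-TNFa-DC 1 and 2, 6.94 and 7.68 on the GM-DC arrays, and 9.60 and 9.78 on the GM-MPP arrays. Both GM-MPP arrays lay above all 4 dendritic cell arrays. The level was 7.31 ± 0.52 in GM-DC and 9.69 ± 0.13 in GM-MPP (SD, n = 2 each), a log2 change of -2.38 ± 0.30 (SE), 5.21-fold lower, with a limma adjusted p of 0.0197. Within number 1 the difference was -2.66 and within number 2 it was -2.10. Of the other 3 probe sets of Rab27a, 2 gave log2 changes of -2.79 and -2.48, and the dimmest, with a mean level of 4.53, gave -0.37. Neutrophil granule markers moved with it. Mpo, the myeloperoxidase of azurophil granules, stood at 4.97 and 4.04 on the GM-DC arrays, against 11.84 and 13.05 on the GM-MPP arrays, and 5 of the 8 granule genes were called lower in GM-DC. The 5 mast cell and basophil markers averaged 5.76 and 5.24 on the GM-DC arrays and 7.38 and 7.56 on the GM-MPP arrays, with 2 of the 5 called lower. Their part in the Rab27a difference was not tested.

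On the probe sets used here, the other secretory Rabs gave smaller changes. Of the 8 Rabs of regulated secretion, Rab27a was called and 7 were not, and the group's median change was -0.24. Rab27b, the paralogue of Rab27a, showed disagreement between its probe sets. The brightest, used here, gave -0.39 ± 0.21 (limma adjusted p = 0.35). The other 3, with mean levels of 4.15, 3.02 and 3.12, gave -2.34, -1.07 and -1.55. The first of these was close to the -2.38 of Rab27a. Rab37, a Rab of secretory granules, gave -0.44 ± 0.31 (adjusted p = 0.474 in limma). Rab3d, found on granules of several secretory cells, gave -0.37 ± 0.32 (0.563).

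Rab38 and Rab32 are sister Rabs that supply lysosome-related organelles such as melanosomes with their cargo. Rab38 was at 5.94 and 6.07 on the GM-TNFa-DC arrays, 6.08 and 5.97 on the GM-DC arrays, and 7.23 and 7.41 on the GM-MPP arrays, so the progenitors lay above all dendritic cell arrays. The mean was 6.02 ± 0.07 in GM-DC and 7.32 ± 0.13 in GM-MPP (SD, n = 2 each). The change was -1.30 ± 0.18, 2.46-fold lower, with a limma adjusted p of 0.026, and its further probe set gave -2.35. It was -1.16 within number 1 and -1.44 within number 2. Rab32 stood at 9.46 and 10.16 on the GM-TNFa-DC arrays, 9.42 and 9.81 on the GM-DC arrays, and 10.09 and 10.31 on the GM-MPP arrays. Array 1 of both dendritic cell groups stood lowest. Its change in GM-DC was -0.58 ± 0.30 (limma adjusted p = 0.338). Whether Rab38 and Rab32 differ in their change was not tested. The melanocyte and keratinocyte markers, 5 genes, averaged 4.17 and 4.26 on the GM-DC arrays and 4.13 and 4.27 on the GM-MPP arrays, below the array medians.

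Rab15 regulates passage through early and recycling endosomes and is best known from neurons. Its level was 7.46 and 7.11 on the GM-TNFa-DC arrays, 8.07 and 7.22 on the GM-DC arrays, and 10.81 and 9.81 on the GM-MPP arrays. The groups did not overlap, although the 2 progenitor arrays were a full log2 unit apart. The mean was 7.64 ± 0.60 in GM-DC and 10.31 ± 0.71 in GM-MPP (SD, n = 2 each), a change of -2.67 ± 0.44 or 6.35-fold lower (limma adjusted p = 0.0366). Within number 1 it was -2.75 and within number 2 it was -2.59.

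Rab13, which delivers cargo to cell junctions and the leading edge, was the only one of the 71 called higher in GM-DC. It was at 7.65 and 7.35 on the GM-TNFa-DC arrays, 7.23 and 7.36 on the GM-DC arrays, and 6.01 and 5.89 on the GM-MPP arrays. All 4 dendritic cell arrays lay above both progenitor arrays. The mean was 7.29 ± 0.09 in GM-DC and 5.95 ± 0.09 in GM-MPP (SD, n = 2 each), a change of 1.35 ± 0.20 or 2.54-fold higher (limma adjusted p = 0.0293). It was 1.22 within number 1 and 1.47 within number 2. Rab15 and Rab13 have 1 probe set each, so no further probe set bears on them.

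These 4 calls rested on few arrays. Without GM-MPP 1, GM-MPP 2 or GM-DC 1 none of the 4 was called by limma, and without GM-DC 2 only Rab27a was. Without GM-TNFa-DC 1 or 2, which enter through the shared spread, Rab27a, Rab38 and Rab13 were called and Rab15 was not (adjusted p of 0.0529 and 0.0527). All 4 kept their direction in each of these fits.

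Seen by role, the 10 Rabs of early endosomes held no called gene in GM-DC, with 4 higher and 6 lower and a median of -0.24. Rab5a, the organiser of early endosomes, was at 9.84 and 9.89 on the GM-TNFa-DC arrays, 9.82 and 9.93 on the GM-DC arrays, and 9.75 and 9.69 on the GM-MPP arrays. Its change was 0.15 ± 0.18 (limma adjusted p = 0.682), a value within its error. Rab14, which works between early endosomes, phagosomes and the Golgi, was at 12.04 and 11.52 on the GM-TNFa-DC arrays, 12.08 and 11.64 on the GM-DC arrays, and 11.39 and 11.52 on the GM-MPP arrays. Array 1 of both dendritic cell groups stood highest. Its change was 0.41 ± 0.25 (limma adjusted p = 0.422). Among early endosomal Rabs, changes ran between -1.10 ± 0.28 for Rab4a, a Rab of fast recycling, and 0.85 ± 0.23 for Rab5b, and neither passed the test.

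The 10 Rabs of recycling and delivery to the plasma membrane had a median of 0.10, and Rab13 and Rab15 were their called genes. Rab11a, which defines the recycling endosome, was at 10.07 and 10.32 on the GM-TNFa-DC arrays, 9.87 and 9.96 on the GM-DC arrays, and 9.53 and 9.31 on the GM-MPP arrays. The groups did not overlap, but the change of 0.50 ± 0.20 had a limma adjusted p of 0.237. Rab8b, of exocytic delivery, gave 0.94 ± 0.24 (0.0918 by the same adjustment). Rab35, of fast recycling from endosomes, was at 8.31 and 7.83 on the GM-TNFa-DC arrays, 8.45 and 7.78 on the GM-DC arrays, and 8.39 and 8.43 on the GM-MPP arrays. The dendritic cell arrays of Rab35 differed more by number than by group.

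The 9 Rabs of late endosomes, lysosomes and lysosome-related organelles had a median of 0.10 in GM-DC, with Rab38 their called gene. Rab7, which governs fusion with lysosomes, was at 11.26 and 11.44 on the GM-TNFa-DC arrays, 11.36 and 11.28 on the GM-DC arrays, and 11.24 and 11.18 on the GM-MPP arrays. Its change was 0.10 ± 0.17 (limma adjusted p = 0.772), within its error. Rab29, which recruits the kinase Lrrk2 to membranes, gave 0.93 ± 0.21 and an adjusted p of 0.0708 in limma, just short of the threshold.

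The 15 Rabs of the endoplasmic reticulum and Golgi held no called gene and had a median of 0.25, with 9 higher and 6 lower. Rab19 was at 6.39 and 7.34 on the GM-TNFa-DC arrays, 8.03 and 7.80 on the GM-DC arrays, and 6.38 and 6.50 on the GM-MPP arrays. Both GM-DC arrays lay above the others, and the change against GM-MPP was 1.47 ± 0.34 (limma adjusted p = 0.0787). Rab19 was called without GM-TNFa-DC 1 (0.0387) or GM-TNFa-DC 2 (0.0384). Rab43, with a role in the cross-presentation of engulfed antigen by some mouse dendritic cells, was at 8.23 and 7.71 on the GM-TNFa-DC arrays, 8.17 and 7.47 on the GM-DC arrays, and 7.34 and 7.19 on the GM-MPP arrays. Its groups did not overlap, and its change was 0.55 ± 0.32 (limma adjusted p = 0.387). Rab2b, of traffic between these compartments, gave 1.10 ± 0.25 with a limma adjusted p of 0.071, and all 5 of its probe sets were higher.

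The 7 Rabs with other roles held no called gene and had a median of 0.16. The 12 genes that are not Rab GTPases held none either, with a median of 0.12. Within them Rab11fip5, an adaptor of the recycling endosome, was at 9.62 and 9.02 on the GM-TNFa-DC arrays, 10.45 and 9.19 on the GM-DC arrays, and 7.83 and 8.0 on the GM-MPP arrays. All dendritic cell arrays lay above the progenitors, by 1.90 ± 0.46 in GM-DC, with a limma adjusted p of 0.083 and GM-DC arrays 1.26 apart. Rab5if, a small protein named for its interaction with Rab5, was at 9.78 and 10.52 on the GM-TNFa-DC arrays, 9.87 and 10.35 on the GM-DC arrays, and 11.44 and 11.34 on the GM-MPP arrays. Its change was -1.28 ± 0.31 (limma adjusted p = 0.0849).

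Counted by array, higher values were somewhat more frequent among the 71 than among all genes, a difference that was not tested. In 27 of them (38.0%) both GM-DC arrays lay above both GM-MPP arrays, against 28.3% of all genes, and in 18 (25.4%) both lay below, against 27.0%. With at least a 2-fold difference on both array numbers there were 4 higher (5.63%, against 3.65% of all genes) and 3 lower (4.23%, against 4.07%).

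**Figure D1:**
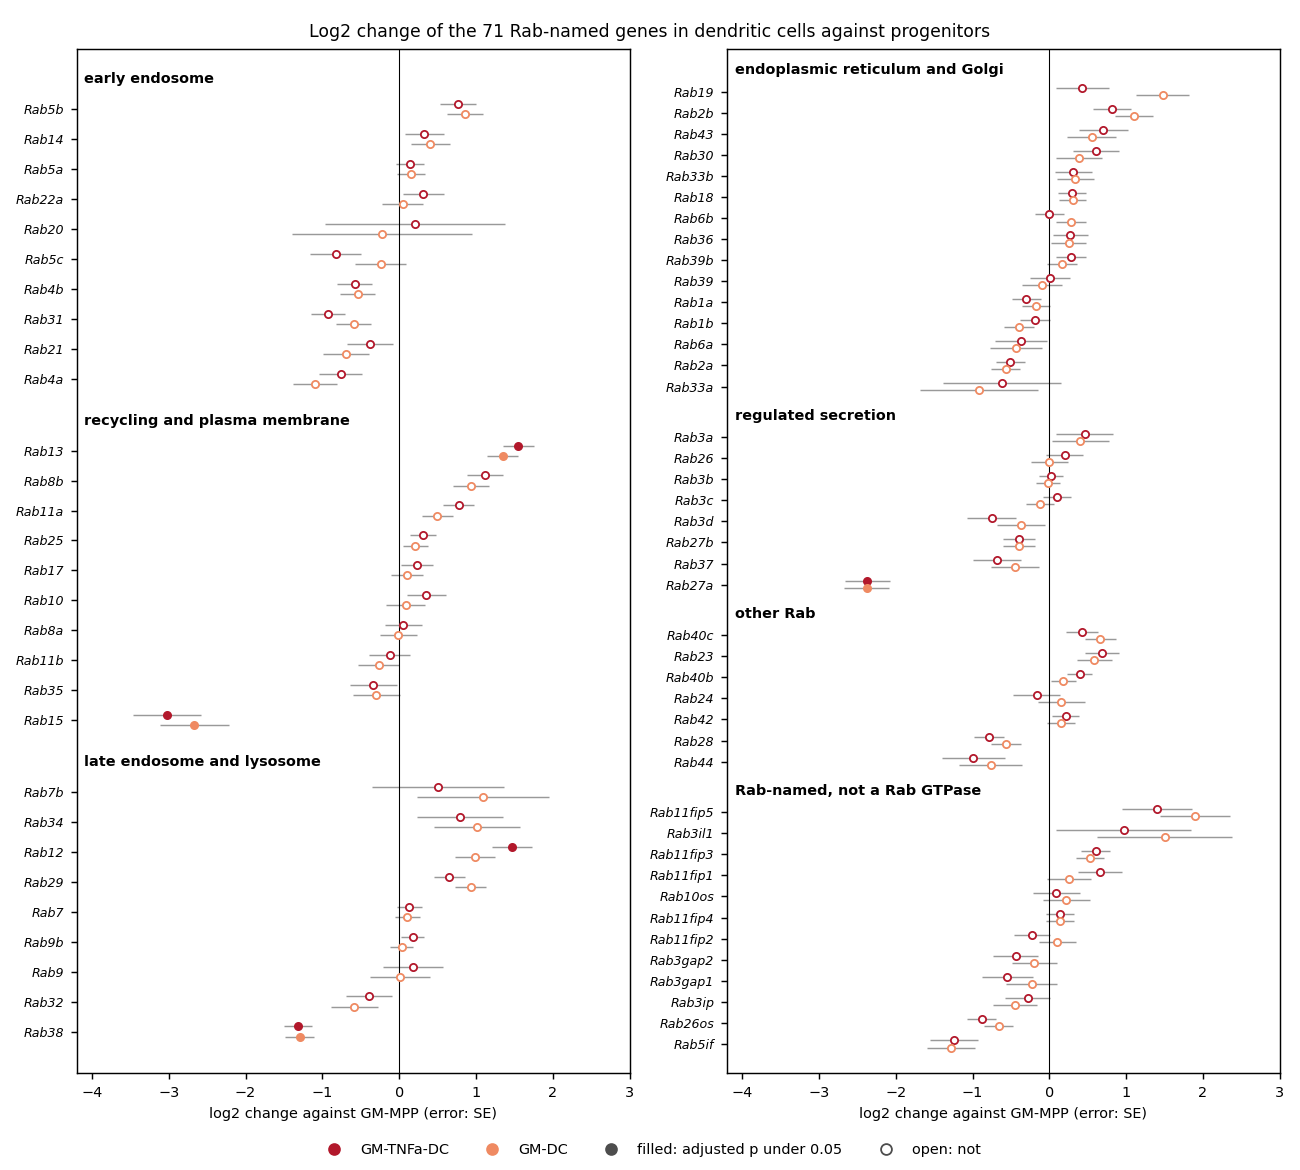
Log2 change against GM-MPP (x axis, bars are SE) of each of the 71 Rab-named genes, by role, for GM-TNFa-DC (red) and GM-DC (orange); filled points have a limma adjusted p under 0.05. Rab15, Rab27a and Rab38 lie lowest among the filled points, Rab13 and Rab12 highest, and most genes are open points near 0.

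The same question was put to dendritic cells made with TNFa as well. GM-TNFa-DC shares its GM-MPP arrays with the comparison above, so the values are not independent of it. In GM-TNFa-DC, Rab15, Rab27a and Rab38 were lower than in GM-MPP, and Rab13 and Rab12 were higher. These 5 genes are 7.04% of the 71, against 7.03% of all genes (2.77% higher, 4.26% lower), which is the background share. At an unadjusted p under 0.05 there were 20 genes, 28.2% against 25.1%.

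Rab15 averaged 7.29 ± 0.25 in GM-TNFa-DC against 10.31 ± 0.71 in GM-MPP (SD, n = 2 each). Its change of -3.02 ± 0.44, 8.13-fold lower, was the largest among the 71 in this comparison, with a limma adjusted p of 0.0236, and was -3.35 and -2.69 within numbers 1 and 2. Rab27a averaged 7.32 ± 0.11 in GM-TNFa-DC and 9.69 ± 0.13 in GM-MPP, a change of -2.37 ± 0.30 or 5.17-fold lower (adjusted p = 0.0161 in limma). Rab38 gave -1.32 ± 0.18, 2.49-fold lower (0.0211), and Rab13 gave 1.55 ± 0.20, 2.93-fold higher (0.0186 by the same test). Each of these genes differed in 1 direction on both array numbers.

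Rab12, which sends cargo such as the transferrin receptor to lysosomes, was at 8.59 and 8.33 on the GM-TNFa-DC arrays, 7.70 and 8.25 on the GM-DC arrays, and 7.09 and 6.90 on the GM-MPP arrays. The GM-TNFa-DC arrays were highest, the GM-DC arrays next and the GM-MPP arrays lowest, with no overlap. Its change was 1.47 ± 0.26 in GM-TNFa-DC, 2.77-fold higher, with a limma adjusted p of 0.0364. In GM-DC it was 0.98 ± 0.26 with an adjusted p of 0.106, and the difference between the dendritic cell groups, 0.48 ± 0.26, did not pass the test. A further probe set of Rab12 gave only 0.17 in GM-TNFa-DC and 0.16 in GM-DC, and with the mean of the probe sets Rab12 was not called (0.129).

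Leaving out either GM-MPP array or GM-TNFa-DC 1 left none of the 5 called by limma, and without GM-TNFa-DC 2 Rab13 alone was called. Without GM-DC 1 or 2, all 5 were. Just short of the threshold in limma were Rab8b at 1.11 ± 0.24 (adjusted p = 0.0525) and Rab31, of early endosomes and the trans-Golgi, at -0.93 ± 0.23 (0.0729). Rab11a gave 0.77 ± 0.20 (0.0849). In 25 genes (35.2%) the GM-TNFa-DC arrays both lay above the GM-MPP arrays, against 31.6% of all genes, and in 21 (29.6%) both lay below, against 26.1%. A 2-fold difference on both array numbers was found in 4.23% of the 71 in each direction, against 3.8% of all genes higher and 5.32% lower.

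**Figure D2:**
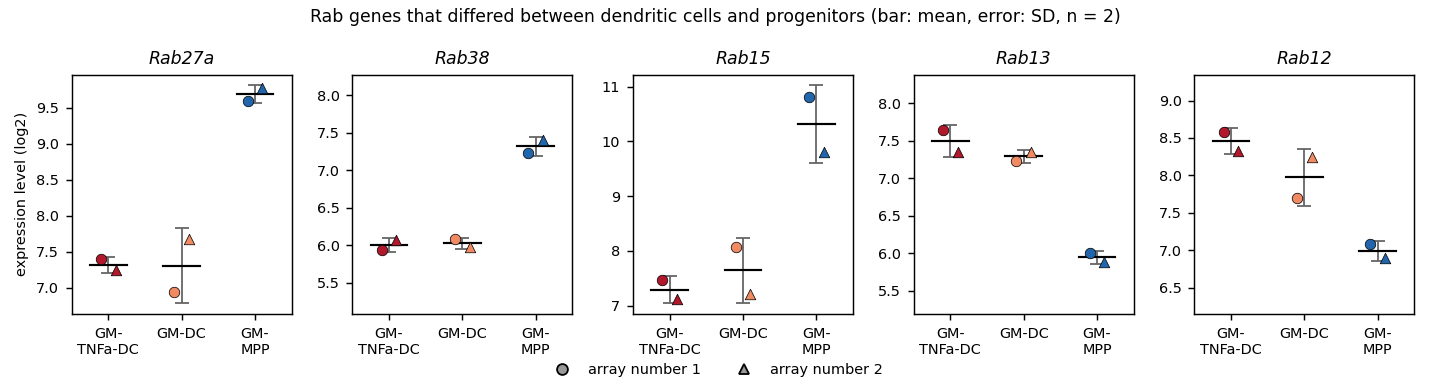
Log2 expression level (y axis) on each of the 6 arrays for the 5 Rab genes with a called group difference; circles are array number 1, triangles number 2, horizontal bars means and error bars SD (n = 2). For Rab27a, Rab38 and Rab15 both GM-MPP arrays lie above all dendritic cell arrays, and for Rab13 and Rab12 below them.

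The third comparison asks what TNFa adds to GM-CSF. No Rab gene differed between GM-TNFa-DC and GM-DC in limma, and neither did any of the 18193 genes (0.0%). At an unadjusted p under 0.05 there was 1 of the 71, Rab19, which is 1.41% against 2.25% of all genes. Rab19 differed by -1.05 ± 0.34, with -1.64 within number 1 and -0.45 within number 2 and an adjusted p of 1. The GM-TNFa-DC arrays of Rab19, at 6.39 and 7.34, both lay below the GM-DC arrays, at 8.03 and 7.80.

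The differences of the 71 genes ran between -1.05 and 0.48, with a median of 0.03 against 0.01 over all genes. For some genes their size differed by number, with the larger difference on either number. Rab33a differed more on number 2, at 3.79 and 5.87 on the GM-TNFa-DC arrays 1 and 2, and 3.86 and 5.20 on the GM-DC arrays. Rab5c, a paralogue of Rab5a, was at 7.13 and 7.89 on the GM-TNFa-DC arrays, 8.14 and 8.05 on the GM-DC arrays, and 8.61 and 8.07 on the GM-MPP arrays. Its TNFa difference was -1.01 within number 1 and -0.16 within number 2. For Rab12 it was 0.88 within number 1 and 0.09 within number 2. On both numbers 18 of the 71 genes were higher in GM-TNFa-DC and 19 lower, against 5627 and 4777 of all 18193 genes. A 2-fold difference on both was found in 0 of the 71, against 0.0715% of all genes higher and 0.0495% lower. The GM-TNFa-DC arrays lay wholly above the GM-DC arrays in 5 genes (7.04%, against 14.9% of all) and wholly below in 9 (12.7%, against 10.6%). With only 2 arrays a group, a p that misses the threshold does not show that TNFa leaves the Rab genes as they were.

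**Figure D3:**
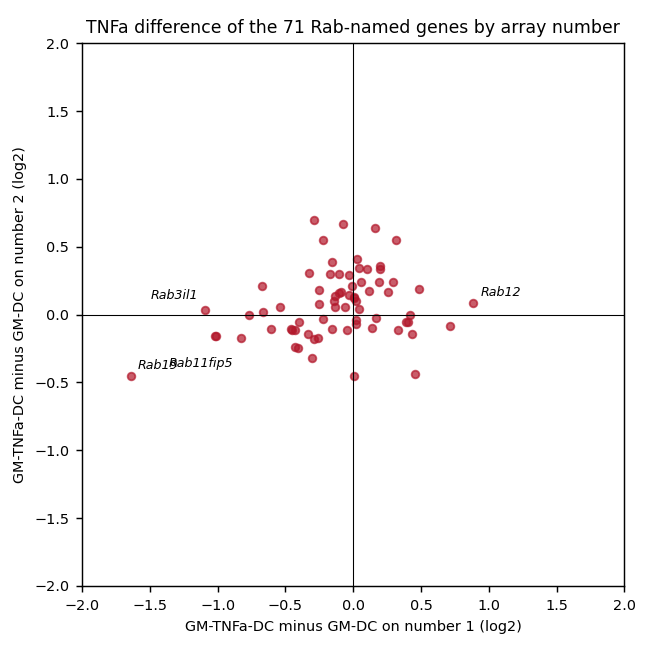
Each point is 1 of the 71 Rab-named genes, with its GM-TNFa-DC minus GM-DC log2 difference on array number 1 (x axis) against that on number 2 (y axis). Rab19 lies farthest out at -1.64 and -0.45, and most points crowd around 0 on both axes.

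Because the dendritic cell arrays stood apart by number, number 2 was set against number 1 over both groups, with the group as a covariate. This contrast was chosen with that split already known. Each group has a single array of each number, so the spread of this contrast is how the number difference varied between both groups. Its SE and p-values hold no spread between repeat arrays of a number within a group. Whether same-numbered arrays of both groups are independent is not known. On number 2 Rab20, Rab7b, Rab33a, Rab34, Rab3a, Rab6a and Rab5if were higher, and Rab3il1, Rab11fip5 and Rab44 were lower (limma adjusted p under 0.05). These 10 genes are 14.1% of the 71, against 11.8% of all genes (6.41% higher, 5.41% lower), so the share is near the background. At an unadjusted p under 0.05 there were 26, 36.6% against 27.0%. With all 6 arrays in the fit and the number as a term, none of the 10 was called (limma adjusted p between 0.279 and 0.477), nor was any of the 18193 genes. With each array centred on its median, the 7 higher and 3 lower became 6 higher and 10 lower, and over all genes 1166 higher and 984 lower became 1165 higher and 1566 lower.

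Rab20, a Rab of phagosome maturation in macrophages, showed the largest of these differences. It was at 8.40 on the GM-TNFa-DC array 2 and 5.54 on array 1, at 7.85 on the GM-DC array 2 and 5.22 on array 1, and at 6.88 and 6.65 on the GM-MPP arrays 2 and 1. The dendritic cell arrays lay on either side of the progenitors, number 2 above and number 1 below. Number 2 minus number 1 was 2.74 ± 0.15 over the dendritic cell arrays, 6.68-fold higher, with a limma adjusted p of 0.0025. It was 0.24 in GM-MPP. The dendritic cell difference exceeded that of GM-MPP by 2.50 ± 0.27 (limma adjusted p = 0.0285), a test added after the values were seen. Its spread came from the dendritic cell arrays alone and holds none between the GM-MPP arrays. Rab20 was the only one of the 71 (1.41%) called in that test, against 2.53% of all genes. In the comparison of groups, Rab20 had a change of -0.23 ± 1.17 in GM-DC and 0.20 ± 1.17 in GM-TNFa-DC against GM-MPP.

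Rab7b and Rab34 both act late in the endocytic route. Rab7b moves receptors between late endosomes and the Golgi and dampens Toll-like receptor signalling in macrophages, and Rab34 positions lysosomes. Rab7b was at 8.68 on array 2 and 6.51 on array 1 of GM-TNFa-DC, 8.84 and 7.53 in GM-DC, and 7.70 and 6.48 in GM-MPP. It was higher on number 2 in every group, by 1.74 ± 0.24 over the dendritic cell arrays, 3.35-fold (limma adjusted p = 0.0159), and by 1.22 in GM-MPP. Rab34 was at 7.13 and 5.50 on the GM-TNFa-DC arrays 2 and 1, 6.92 and 6.17 in GM-DC, and 5.54 and 5.52 in GM-MPP. Its difference was 1.19 ± 0.25, 2.28-fold (limma adjusted p = 0.0443), and the progenitor arrays were 0.02 apart.

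Rab33a and Rab6a belong with the Golgi. Rab33a, whose paralogue Rab33b works in autophagy, was at 5.87 and 3.79 on the GM-TNFa-DC arrays 2 and 1, 5.20 and 3.86 in GM-DC, and 5.71 and 5.19 in GM-MPP. Its difference was 1.72 ± 0.22, 3.28-fold (limma adjusted p = 0.0135). Its number 1 levels in both dendritic cell groups were under the median of their arrays. Rab6a, of retrograde traffic at the Golgi, differed by 0.68 ± 0.13 and Rab3a, of regulated exocytosis, by 0.75 ± 0.14 (limma adjusted p of 0.0346 and 0.0328). Rab5if differed by 0.61 ± 0.13 and was at the edge of the threshold, with 0.0499. With the mean of the probe sets Rab6a, Rab3a and Rab5if were not called (limma adjusted p of 0.0895, 0.0652 and 0.193).

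The 3 genes lower on number 2 were regulators and an atypical Rab. Rab3il1, an exchange factor of Rab8, was at 6.16 and 7.56 on the GM-TNFa-DC arrays 2 and 1, 6.13 and 8.66 in GM-DC, and 5.88 and 5.90 in GM-MPP. Only the dendritic cell arrays numbered 1 lay clearly above the progenitors, and the difference was -1.97 ± 0.29, 3.9-fold lower (limma adjusted p = 0.0194). Rab11fip5 differed by -0.93 ± 0.19 (0.0455 in limma) and was not called with the mean of the probe sets (0.0618). Rab44, an unusually large Rab with calcium-binding motifs, was at 7.20 and 7.86 on the GM-TNFa-DC arrays 2 and 1, 7.25 and 8.26 in GM-DC, and 8.60 and 8.44 in GM-MPP, a difference of -0.84 ± 0.16 (0.0354 in limma). Rab14 (-0.48 ± 0.10, adjusted p = 0.0511), Rab43 (-0.61 ± 0.14, 0.0607) and Rab35 (-0.57 ± 0.14, 0.0686) stayed just outside the threshold in limma.

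Other cell type markers moved with the number. In the same contrast all 9 dendritic cell markers had lower values on number 2, and 8 of them were called lower. Of the 6 measured macrophage and monocyte markers, Cd14, a co-receptor for bacterial lipopolysaccharide, was higher by 4.85 and the Fc receptor Fcgr1 by 2.26, while Mertk was lower by 0.95. Of the 7 progenitor markers, the stem cell factor receptor Kit was lower by 3.29 and Gfi1 higher by 1.41. Of the 8 neutrophil granule genes 4 were called lower, with Ngp at -2.35, Ltf at -2.30, Ctsg at -1.22 and Mpo at -0.88, and Prtn3 was higher by 0.84. Of the 5 mast cell and basophil markers Cpa3 was lower by 1.08, and none of the 5 melanocyte and keratinocyte markers was called. Cd14 stood at 13.18 and 8.50 on the GM-TNFa-DC arrays 2 and 1, 12.50 and 7.48 in GM-DC, and 9.25 and 8.24 in GM-MPP. The macrophage and monocyte list averaged 11.3 and 9.81 on the GM-TNFa-DC arrays 2 and 1, 11.3 and 10.2 in GM-DC, and 9.21 and 8.61 in GM-MPP. The part of these cells, and of the labelling controls, in the differences of Rab20 and the other Rab genes was not tested.

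**Figure D4:**
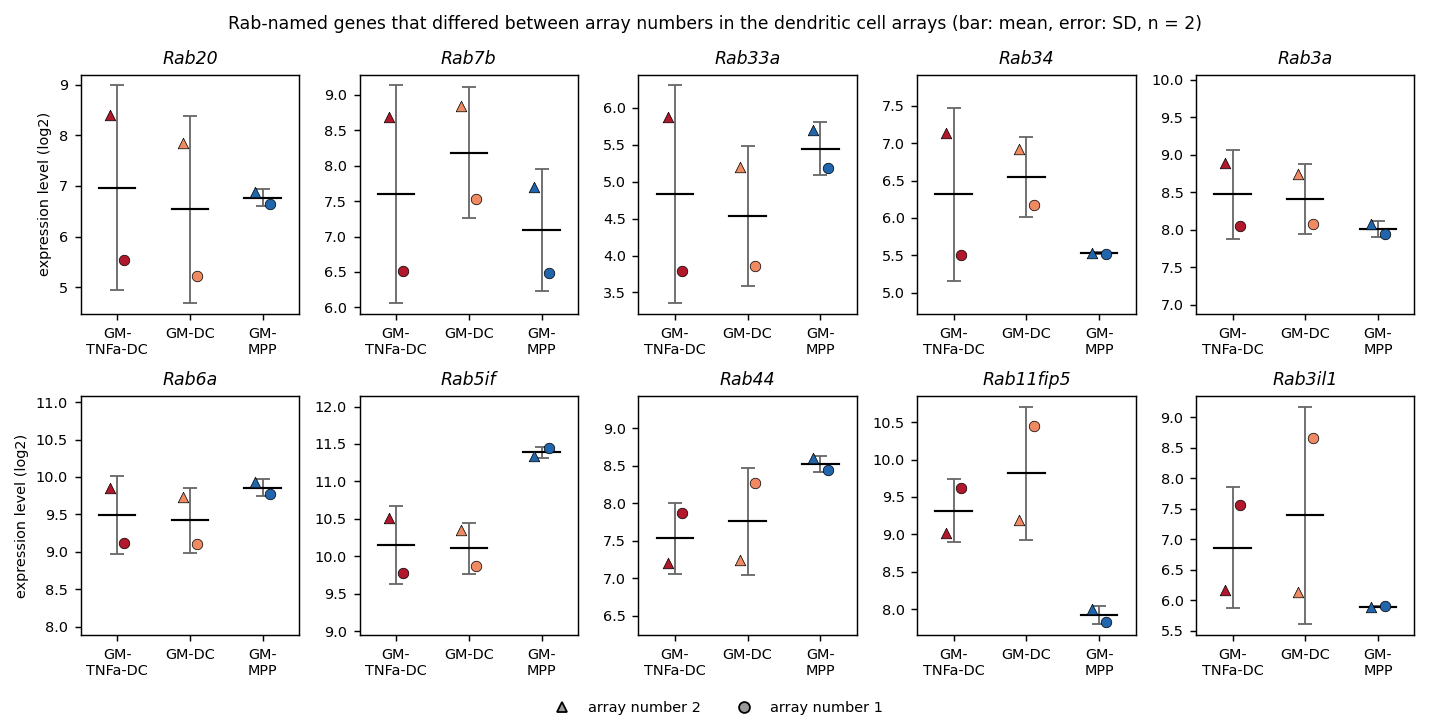
Log2 expression level (y axis) on each array of the 10 Rab-named genes called between array numbers in the dendritic cell arrays; triangles are number 2, circles number 1, horizontal bars means and error bars SD (n = 2). Rab20 shows the widest split, with 8.40 and 5.54 in GM-TNFa-DC, while its GM-MPP arrays lie at 6.88 and 6.65.

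The genes that act on Rabs were read from lists of textbook members, chosen with earlier results of these data known. For prenylation and recycling of the lipid anchor 11 of 13 listed genes were measured, and none was called in either dendritic cell group against GM-MPP. Of all genes 4.5% were called in GM-DC and 7.03% in GM-TNFa-DC, so few calls could occur among 11. Of 37 GAPs, 2 were higher and 1 lower in GM-DC, which is 8.11% against 4.5% of all genes. Tbc1d10c, also called carabin and studied mainly in lymphocytes, was at 5.25 and 5.15 on the GM-TNFa-DC arrays, 5.63 and 4.90 on the GM-DC arrays, and 7.95 and 8.70 on the GM-MPP arrays. Its change of -3.06 ± 0.35 in GM-DC (limma adjusted p = 0.0161) exceeded in size that of every Rab gene. The GAPs Grtp1 (1.56 ± 0.29) and Tbc1d9 (1.40 ± 0.22) were higher in GM-DC, and Tbc1d9 also in GM-TNFa-DC. In GM-TNFa-DC 1 GAP was called higher and 1 lower, which is 5.41% against 7.03% of all genes.

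Of 40 measured exchange factors, 1 was higher in GM-DC, which is 2.5% against 4.5% of all genes. C9orf72, part of an exchange factor complex linked to autophagy, was at 8.82 and 9.10 on the GM-TNFa-DC arrays, 8.49 and 8.75 on the GM-DC arrays, and 6.91 and 7.33 on the GM-MPP arrays. Its change was 1.50 ± 0.25 in GM-DC and 1.84 ± 0.25 in GM-TNFa-DC (limma adjusted p of 0.0371 and 0.0201). In GM-TNFa-DC Sbf2 was also higher (2.29 ± 0.45), and the Rab5 exchange factor Rin3 (-1.28 ± 0.25) and Dennd2d (-1.68 ± 0.32) were lower. The 4 called there are 10% of the list, against 7.03% of all genes.

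Of 60 measured effectors, 1 was higher and 2 were lower in GM-DC, which is 5.0% against 4.5% of all genes. Without regard to the test 45 of the 60 were higher, against 9660 of all 18193 genes. The list's median was 0.24 against 0.02 over all genes, a shift that was not tested. In GM-TNFa-DC 1 effector was called higher and 2 lower, which is 5.0% against 7.03% of all genes. Sytl1 binds Rab27a on neutrophil granules. It was at 5.13 and 5.20 on the GM-TNFa-DC arrays, 5.28 and 5.11 on the GM-DC arrays, and 6.75 and 7.14 on the GM-MPP arrays, so that, as for Rab27a, the progenitors lay above all dendritic cell arrays. Its change was -1.75 ± 0.20 in GM-DC and -1.78 ± 0.20 in GM-TNFa-DC (limma adjusted p of 0.0161 and 0.0128). Rabepk, an effector of Rab9, was lower by 1.15 ± 0.18 in GM-DC. Rilpl1 was higher there (2.07 ± 0.37), and its relative Rilp, an effector of Rab7, was higher in GM-TNFa-DC (1.64 ± 0.34). No gene of the 4 lists was called between GM-TNFa-DC and GM-DC, where 0.0% of all genes were.

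Between array numbers, 14 of the 60 effectors were called, 3 higher and 11 lower on number 2. That is 23.3%, against 11.8% of all genes, and 1 of the 14, Rab11fip5, is among the 71. Eea1, the Rab5 effector that tethers early endosomes, was higher by 0.90 ± 0.15 and Lrrk2, a kinase that phosphorylates Rabs, by 1.61 ± 0.22. Lrrk1, its relative, was lower by 2.09 ± 0.20 and Mical1 by 1.79 ± 0.15. Mlph and Myo5a, which with Rab27a move melanosomes along actin, were lower by 1.04 ± 0.16 and 0.79 ± 0.12, with 5.26 as the highest level of Mlph on any array. Among GAPs 4 were lower and none higher (10.8%, near the 11.8% of all genes), led by Tbc1d4 (-2.98 ± 0.18) and Rabgap1l (-2.93 ± 0.49). Among exchange factors 1 was higher, Rin2 (1.29 ± 0.14), and 5 were lower, Rab3il1 included (15.0%). Of the 11 genes of prenylation and recycling 1 was called lower, Chml (-0.94 ± 0.15), which is 9.09%. With all 6 arrays and the number as a term, no gene of these lists was called.

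**Figure D5:**
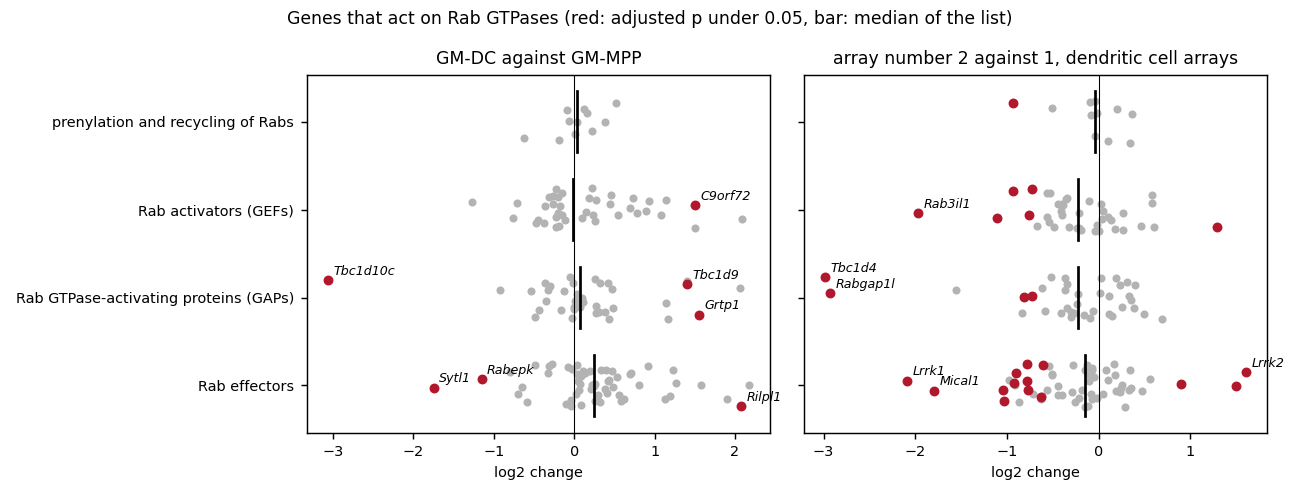
Log2 change (x axis) of each gene in 4 lists of proteins that act on Rabs, for GM-DC against GM-MPP (left) and for array number 2 against 1 in the dendritic cell arrays (right); red points have a limma adjusted p under 0.05, short vertical bars are list medians, and vertical scatter has no meaning. On the left Tbc1d10c lies farthest out at -3.06, and on the right the red points lie mostly below 0, with Tbc1d4 at -2.98.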

How the data were processed

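The members and gene lists were chosen with earlier results of these data known. The deposited table holds 1 log2 value per probe set and array for 45101 probe sets and 6 arrays. The authors made these log2 values with RMA, per the submitters' processing notes, and with Bioconductor, per the labels. RMA corrects background, quantile-normalizes arrays and summarises probes. The version is not given in the sources used here, and the log2 scale was inferred from the range of 1.888 to 14.431. Its quantile step takes out brightness differences between arrays, and changes of dim genes are compressed. For arrays, precision is limited by their number, here 2 a group.

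The platform annotation gave 1 gene symbol to 34945 probe sets, several to 932 and none to 9160, and 64 served as controls; 34741 were found in RefSeq (GRCm38.p6) by Entrez identifier, and current symbols gave the same 71 members. The brightest single-symbol probe set stood for a gene. Tests used limma (version 3.58.1 under R 4.3.3: lmFit, then eBayes with an intensity trend) on 18193 genes, 3 groups sharing 1 spread, with Benjamini-Hochberg adjustment and a threshold of 0.05. The number contrast used the 4 dendritic cell arrays with group as a covariate. Errors after ± are SE of log2 changes unless SD is written. The rule for values on every array took called members, the 6 largest changes of each contrast and a panel of 10; partner genes were named when called, at most 6 a list and contrast. Other members named in the text, such as Rab44, Rab5if, Rab3a and Rab29, were chosen after their values were seen. In simulated data of 18193 genes the fit called 30.9%, 86.4% and 98.5% of genes changed 2-fold, 4-fold and 16-fold in GM-DC against GM-MPP. There 8 unchanged genes were called. In the number contrast it called 7.35%, 47.0% and 97.0%, with 5 unchanged genes called. The simulated noise was independent between arrays and had the spread of the 3-group fit, which includes the number split. The rates for the number contrast therefore do not carry over to the real arrays. Alternatives were a repeated quantile normalization, median centring, leaving out genes below the median level, averaging the probe sets of each gene, no trend, a robust prior, the number as a block and each array left out. Python 3.11.15 and matplotlib 3.10.9 prepared tables and plots.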

Additional observations from a re-analysis of the deposited data

Results flagged for a closer look

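Rab20 differed between array numbers in the dendritic cell arrays and not to the same extent in the progenitor arrays. Number 2 minus number 1 was 2.86 in GM-TNFa-DC, 2.62 in GM-DC and 0.24 in GM-MPP. The difference between the dendritic cell arrays and the GM-MPP arrays was 2.50 ± 0.27 (SE), with a limma adjusted p of 0.0285 over all genes. This test was added after the values were seen. Its spread came from the dendritic cell arrays alone, since the fit matched both GM-MPP arrays exactly. The SE and the p-value thus hold no spread between the GM-MPP arrays. Cd14 moved with Rab20, at 13.18 and 8.50 on the GM-TNFa-DC arrays 2 and 1, 12.50 and 7.48 in GM-DC, and 9.25 and 8.24 in GM-MPP. Of the 6 measured macrophage and monocyte markers, 2 were called higher on number 2, Cd14 and Fcgr1. Mertk was called lower, and Adgre1, Csf1r and Cd68 were not called. The part of these markers' cells in the Rab20 difference was not tested.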

How the results depend on the processing

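With 2 arrays a group, counts of called Rab genes moved with single arrays. For GM-DC against GM-MPP, leaving out 1 array gave 0 to 2 higher and 0 to 2 lower, against 1 and 3; both were 0 without GM-MPP 1, GM-MPP 2 or GM-DC 1, and without GM-DC 2 they were 0 and 1. For GM-TNFa-DC against GM-MPP it gave 0 to 2 higher and 0 to 4 lower, against 2 and 3, with 0 lower without either GM-MPP or either GM-TNFa-DC array. For GM-DC, 2 were higher with a repeated quantile normalization, without dim genes, with the mean of the probe sets, without the trend and with the replicate block. For GM-TNFa-DC, 5 were lower without dim genes, with the mean of the probe sets, without the trend and with the replicate block. In the number contrast, median centring gave 10 lower and leaving out dim genes 5, against 3; the mean of the probe sets gave 4 higher, against 7; and all 6 arrays with the number as a term gave 0 of each, over all genes too. GM-TNFa-DC against GM-DC gave 0 throughout, also with the replicate block on its 4 arrays alone. No Rab gene with a called difference changed direction under any alternative, and the causes of these shifts were not tested. Over all genes the replicate block moved the calls to 627 higher and 849 lower in GM-DC, against 340 and 479, and to 850 and 1210 in GM-TNFa-DC, against 504 and 775. It added Rab11fip5 (adjusted p = 0.0487) and Rab5if (0.0494) in GM-DC, and Rab8b (0.0401), Rab26os (0.0356) and Rab5if (0.0445) in GM-TNFa-DC. Same-numbered arrays are not taken as pairs: number differences correlated at 0.8055 over all genes between the dendritic cell groups, but at 0.1046 and 0.0719 between GM-DC or GM-TNFa-DC and GM-MPP.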

Other observations

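Different probe sets of a Rab gene did not always give the same value. Of the 48 genes with more than 1 probe set, all probe sets pointed the same way in 36 for GM-DC against GM-MPP, in 38 for GM-TNFa-DC against GM-MPP and in 31 for number 2 against number 1. Log2 changes of probe sets of 1 gene lay more than 1 apart for 6 genes in GM-DC against GM-MPP, namely Rab10os, Rab27a, Rab27b, Rab38, Rab3il1 and Rab5if. Between GM-TNFa-DC and GM-DC no gene had probe sets that far apart. All 7 probe sets of Rab14 were lower on number 2 in the dendritic cell arrays, by values between -1.12 and -0.48, although the brightest alone missed the threshold. Rab43 had probe sets at -1.19, -0.61 and 0.45 in that contrast. These genes were picked out after their values were seen.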
